A study of Drosophila melanogaster with 4 samples.

Results

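Dense clusters of H3K4me1 peaks are stretches of the fly genome in which 5 or more separate peaks follow each other at short distances and none of the peaks is itself broad. They were found in the authors' list of peaks on the chromosome arms 2L, 2R, 3L, 3R and X. Neighbouring peaks were joined when the next began 1000 bp or less after the last ended, and joined regions of at least 5 peaks were kept if every peak in them was narrower than 5000 bp. The members were thus chosen by measured values, the positions and widths of the peaks, so their spans, peak numbers and coverage describe the choice and support nothing further. The choice gave 502 dense clusters among 5426 joined regions. Among the upper 50% of peak scores 60 clusters were found, but leaving out peaks can lower the number whatever their scores. The number rests in part on gaps longer than 500 bp, since 212 were found with a joining limit of 500 bp. Short gaps matter too, with 214 clusters after peaks were merged across gaps of 200 bp or less. The 502 clusters held 3292 of the 14009 peaks on these arms (23.5%) and 17.4% of the sequence under peaks.

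The study mapped histone H3 monomethylated at lysine 4 by chromatin immunoprecipitation and sequencing (ChIP-seq) in wandering third-instar larvae of Drosophila melanogaster. Its 4 samples are 2 H3K4me1 ChIP libraries and 2 input DNA libraries, the input being chromatin DNA taken without the antibody step. All of them come from the strain Y cn bw sp, with y[1] and oc[R3.2] in the first part of the labelled genotype, with Gr22b[1] and Gr22d[1] beside cn[1], CG33964[R4.2] and both bw[1] and sp[1] in the second, and with LysC[1], lab[R4.2], MstProx[1] along with GstD5[1] and Rh6[1] in the last. The larvae were of unknown sex, were not treated with any named agent, and were fixed in 1.8% formaldehyde for 15 min. The protocol names no dissection and no sorting of cells, so the list is not resolved by tissue or cell type. The deposited list covers the series as a whole. It has no value for a single library, so neither sequencing depth nor an error between replicates can be given, and every value below is a description of 1 list with no test.

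Monomethylation of lysine 4 on histone H3 is laid down in flies mainly by the methyltransferase Trr, the counterpart of mammalian MLL3 and MLL4. It marks enhancers, active and poised, and the shoulders of active promoters, whose centres carry trimethylation instead. A stretch of open DNA bound by factors has few nucleosomes, so that the mark commonly stands on both sides of a dip. The genes that lie in the clusters were not analysed here, because the peaks are in FlyBase release 5 coordinates and the gene table at hand is of release 6.

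The members ranged from compact groups of very narrow peaks to long runs of wide ones. The median span, from the first base of the first peak to the last base of the last, was 8.64 kb, and the middle 50% of clusters spanned 6.05 to 11.8 kb. The shortest spanned 2.41 kb and the longest 37.9 kb. A total of 74 clusters (14.7%) were shorter than 5 kb and 18 (3.59%) were longer than 20 kb. Together the clusters spanned 4.78 Mb, or 4.08% of the 117 Mb between the first and last peaks of the arms.

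Clusters of 5 peaks were the most frequent. There were 200 of them (39.8%), with a median span of 6.49 kb. A further 110 clusters had 6 peaks, with a median span of 7.90 kb, and 90 had 7, with a median of 9.68 kb. Of the rest, 60 had 8 or 9 peaks (median span 11.5 kb) and 42 had 10 or more (median span 16.8 kb). Larger clusters were longer by construction, but their peaks were of much the same size. The median peak width was 750 bp in clusters of 5 peaks and 769 bp in clusters of 10 or more. Over the peaks of all members the median width was 765 bp, and the middle 50% were 378 to 1573 bp wide. Peaks stood at a median density of 7.41 per 10 kb of cluster, with quartiles of 5.65 and 9.86.

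Most of the sequence within a cluster lay under peaks. The median covered share of the span was 78.2%, with quartiles of 70.7 and 83.4%. It was below 60% in 33 clusters (6.57%) and above 90% in 15 (2.99%). The covered share did not follow the number of peaks. Its median was 77.6% in clusters of 5 peaks, 76.9% in those of 6, 78.2% in those of 7, 79.6% in those of 8 or 9 and 79.3% in those of 10 or more. Spearman's rho between number of peaks and covered share was 0.04 over the 502 clusters, given as a description without a p-value, since both come from the same peaks.

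**Figure D1:**
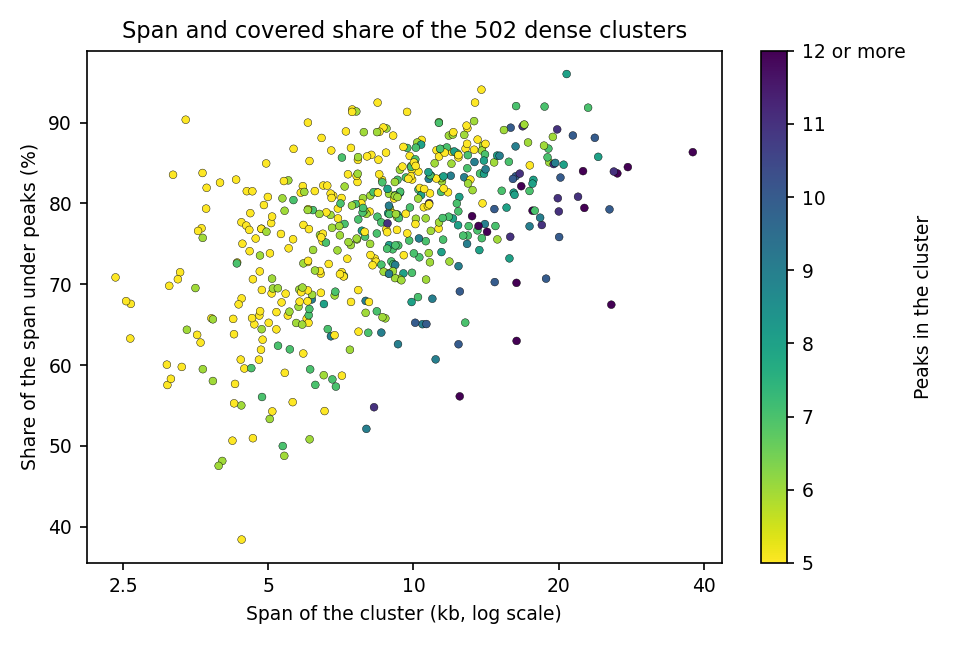
Each point is 1 of the 502 dense clusters, placed by its span (kb, log axis) and the share of that span under peaks (%), and coloured by its number of peaks. Clusters below 60% coverage are mostly short, and the longest cluster, at 37.9 kb, is covered to 86.3%.

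Joined regions of the 2 neighbouring kinds show what the rule separates. Regions of at least 5 peaks that also held a peak of 5 kb or wider numbered 264. The dense clusters had a median span of 8.64 kb, against 18.9 kb in those regions, and a median covered share of 78.2%, against 88.7%. Regions of 2 to 4 narrow peaks numbered 2200. Peaks in the dense clusters had a median width of 765 bp, against 751 bp in regions of 2 to 4 narrow peaks. The quartiles of width were 378 and 1573 bp in the dense clusters, against 373 and 1572 bp in regions of 2 to 4 narrow peaks. The dense clusters thus differed from the small regions in the number of peaks and hardly in peak width, whose upper limit the rule set for both.

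At its limits the rule divides a continuum. The widest peak just inside the width limit was 4994 bp, in a cluster of 7 peaks at 3L, 11517515 to 11529240. The narrowest just outside was 5022 bp, in a region of 5 peaks at 3L, 5341648 to 5352366. The widest peak measured at least 4500 bp in 28 clusters, while 40 regions of at least 5 peaks were left out with a widest peak of at least 5000 and under 5500 bp. Gaps of 900 to 1000 bp numbered 358 on the arms and longer gaps of up to 1100 bp numbered 302. Clusters of 5 peaks had a median covered share of 77.6% and a median valley of 319 bp, against 78.5% and 333 bp in the 336 regions of 4 narrow peaks.

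The cluster with the most peaks lay on 3R, 6350494 to 6366856, where 19 peaks shared 16.4 kb. Only 1 of the 19, the fourth, was wider than 1 kb, at 2631 bp. The narrowest was 200 bp wide, and peaks covered 63.0% of the span. The highest score in it, 64.7, belonged to a peak of 439 bp, the fourteenth. The score is the value that the authors' peak caller gave to each peak, on a scale that is not stated, so it serves here to rank peaks and not to measure signal.

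The cluster that follows it on the arm, at 3R, 6410497 to 6438323, began 43.6 kb further on and held 18 peaks over 27.8 kb. Its widest peak, at 4780 bp, was the fifteenth of the row, and its highest score, 113, belonged to the second, which was 3489 bp wide. Peaks covered 84.5% of it. From the fifth peak to the fourteenth ran 10 narrow peaks of 205 to 1035 bp, and the valleys between them ranged from 59 to 534 bp. The third of the richest clusters, at 3R, 21453660 to 21479377, also had 18 peaks, with wider valleys of 583 bp at the median and a covered share of 67.5%.

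A cluster of 15 peaks at 3L, 13928319 to 13940791, was made almost wholly of narrow peaks. Its widest was 1072 bp and its highest score 43.9, and peaks covered 56.1% of its 12.5 kb. The richest cluster on X, at 6621563 to 6644033, held 14 peaks. In contrast to the preceding one it contained a peak with a score of 293, while the median score of its peaks was 27.1. A second X cluster of 14 peaks, at 5901673 to 5915316, had no peak wider than 1639 bp and no score above 54.5. The 10 clusters richest in peaks held 13 to 19 peaks each over 12.5 to 37.9 kb, and their covered shares ran from 56.1 to 86.3%. Of these 10, the widest peak was also the highest in score in 1.

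**Figure D2:**
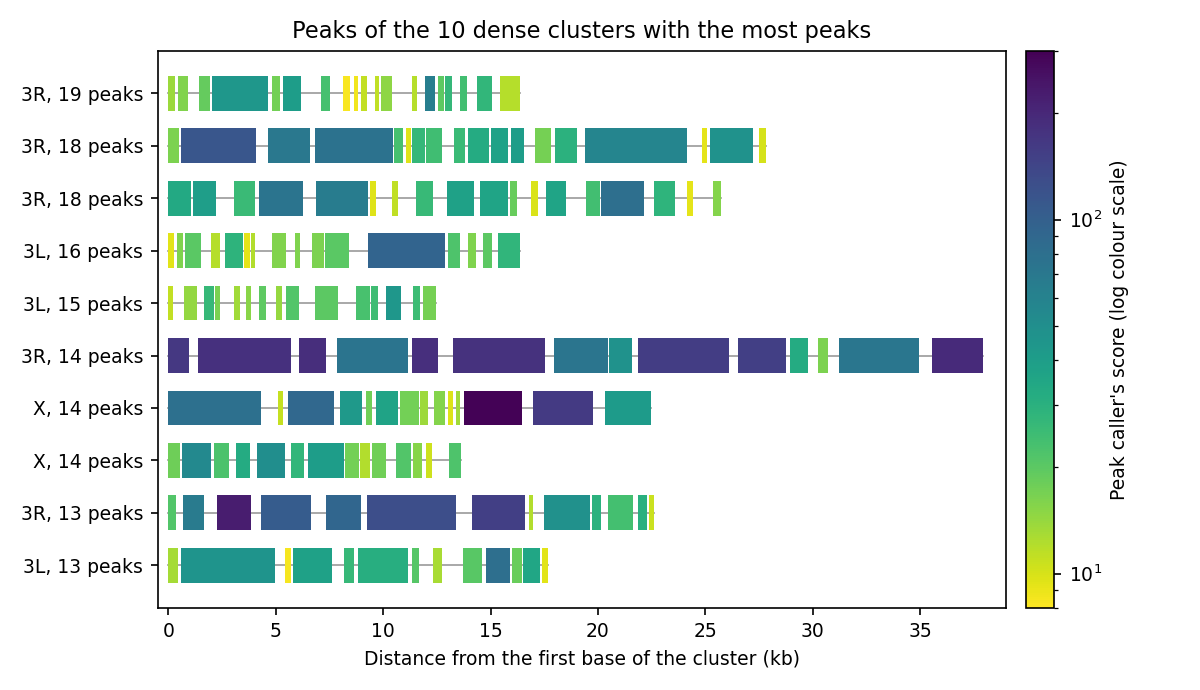
The 10 dense clusters with the most peaks are drawn to scale from the first base of each (kb), 1 row per cluster, with peaks as blocks coloured by the peak caller's score on a log scale. The 14-peak cluster of 3R, at 37.9 kb, is made of wide and high-scoring blocks, whereas the 15-peak cluster of 3L has only narrow, low-scoring ones.

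The longest member, at 3R, 7034588 to 7072533, had 14 peaks over 37.9 kb and was covered to 86.3%. The median score of its peaks was 156, against 30.8 for the median dense cluster. Wide and short peaks alternated along its start. The first, 942 bp wide, scored 167, the second, of 4310 bp, scored 182, and the third, of 1225 bp, scored 187. The fourth, of 3306 bp, scored 74.5, and the fifth, of 1211 bp, scored 184. The short peaks on either side of the fourth thus scored above it, although it was wider. Its highest score, 195, stood on the last peak, which was 2389 bp wide.

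Other long members were found on 4 arms. On 2L the cluster at 8360108 to 8386576 had 12 peaks over 26.5 kb. The clusters of X at 3029887 to 3055915 and 1353089 to 1377247 had 11 peaks over 26.0 kb and 8 peaks over 24.2 kb. The 10 longest clusters were all longer than 22.6 kb and held 7 to 18 peaks, and 4 of them were also among the 10 richest in peaks. Arm 3R held 4 of the 10, X held 3, 2R held 2 and 2L held 1.

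The most and the least covered members differed in the widths of both their peaks and their valleys. The most covered, at 3R, 21117588 to 21138366, was under peaks over 96.0% of its 20.8 kb. Its 8 peaks ranged from 349 to 4151 bp, and its 7 valleys from 65 to 156 bp. The least covered, at X, 8550427 to 8554830, was under peaks over 38.4% of its 4.40 kb. Its 5 peaks were 233, 437, 224, 253 and 545 bp wide in order, and the valleys between them were 358, 852, 767 and 735 bp long. The shortest member of all, at X, 154441 to 156852, packed 5 peaks of 273 to 546 bp into 2.41 kb, with valleys of 59 to 406 bp.

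Valleys, the gaps between neighbouring peaks of a cluster, were mostly short. Over the 2790 valleys the median length was 296 bp, and the middle 50% were 143 to 546 bp long. The shortest was 51 bp and the longest 999 bp, the upper bound being set by the rule. The shortest was also 51 bp in every other kind of joined region that has valleys, and the source of this floor is not known. Valleys under 100 bp made up 15.3%, those of 100 to 299 bp 35.2%, those of 300 to 499 bp 20.3% and those of 500 bp or longer 29.2%. Only 109 valleys (3.91%) were 900 bp or longer. Counts fell off with length, with some small rises on the way. The first rise was in the bin that begins at 200 bp and ends below 250 bp, which held 291 valleys, against 218 in the bin before and 184 in the bin after.

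Valleys in the dense clusters had a median of 296 bp, against 354 bp in the 3515 valleys of regions with 2 to 4 narrow peaks, with the same limit of 1000 bp in both. A region reaches 5 peaks only where successive gaps stay within that limit, so the gaps themselves took part in the sorting into these kinds. Those of at least 500 bp made up 29.2% in the dense clusters, against 34.1% in the small regions. The rise in the bin from 200 bp to below 250 bp was present in both, at 10.4% of valleys in the dense clusters and 8.51% in the small regions. In the regions that also held a peak of 5 kb or wider, the median valley was 295 bp.

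**Figure D3:**
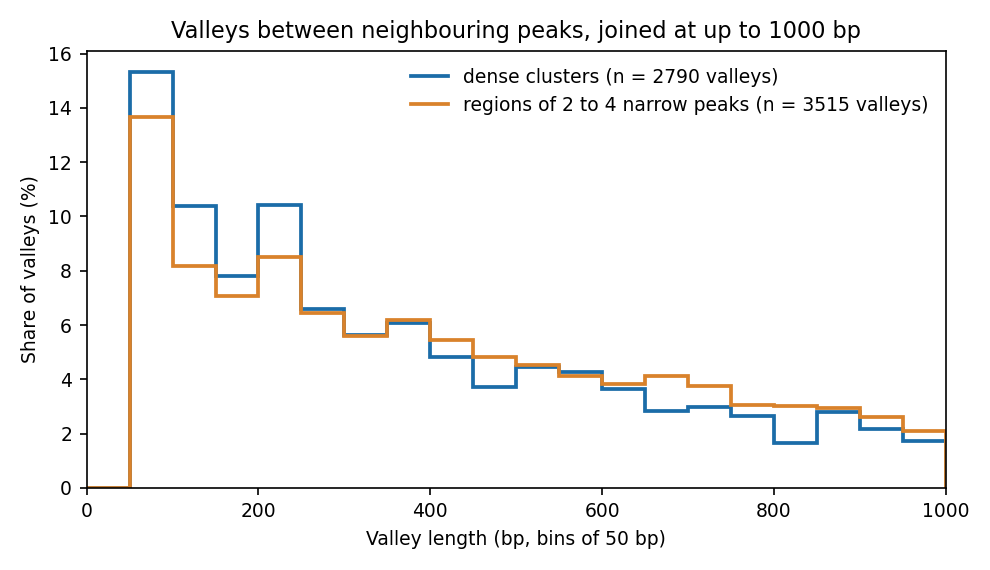
Share of valleys (%) by length in bins of 50 bp, for the 2790 valleys of dense clusters and the 3515 valleys of regions with 2 to 4 narrow peaks. Both curves start at 51 bp, peak in their first filled bin (15.3 and 13.7%) and show a smaller rise between 200 and 250 bp.

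Valleys also varied within a cluster. The shortest valley of a cluster had a median of 89.5 bp and was under 100 bp in 288 clusters (57.4%). The longest valley of a cluster had a median of 718 bp. Both a valley under 100 bp and one of at least 500 bp were present in 228 clusters (45.4%), and in 95 clusters (18.9%) every valley was shorter than 500 bp. Valleys beside the widest peak had a median of 332 bp, against 284 bp for the other valleys. Between the outermost valleys and the inner ones the medians were 306 and 290 bp. Valleys were longer where both flanking peaks were wide. Among the 697 valleys whose narrower neighbour measured 875 bp or more the median was 373 bp, against 261 to 279 bp where the narrower neighbour was 874 bp or less, in 3 classes of near-equal size.

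The widest peak supplied 50% or less of the covered sequence in most clusters. It is at or above the median width of its cluster by construction, and its lead over the second widest was not measured. The widest peak had a median of 2336 bp and was 2.65 times the median peak of its own cluster at the median. It supplied 34.5% of the covered sequence, with quartiles of 28.4 and 42.1%. In 47 clusters it supplied more than 50%, and 35 of these were clusters of 5 peaks. In 44 clusters (8.76%) no peak reached 1 kb.

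The widest peak was at an end of the row in 146 of 502 clusters, or 29.1% (95% exact binomial interval 25.1 to 33.3%, which covers counting error only and takes clusters as independent). The first and last places together make up 32.7% of places when averaged over clusters. The widest peak was at an end in 31.0% of clusters of 5 peaks, where ends make up 40% of places. In clusters of 6 peaks the values were 37.3 and 33.3%, and in those of 7 they were 24.4 and 28.6%. They were 20.0 and 23.8% with 8 or 9 peaks, and 21.4 and 17.5% with 10 or more. By arm the share with the widest peak at an end ran from 23.2% on 2R to 37.2% on X. The peak with the highest score, which the rule did not use, was at an end in 166 clusters, or 33.1% (95% exact binomial interval 29.0 to 37.4%). Along the span, the centre of the widest peak lay at a median of 0.53 of the way from the lower to the higher coordinate, and the middle 50% of clusters had it at 0.30 to 0.73 of the way.

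In clusters of 5 peaks the places were filled unevenly. Counted towards higher coordinates, the widest peak was the first in 29, the second in 34, the third in 39, the fourth in 65 and the last in 33 of 200 clusters. The fourth place was the most frequent on 2L (17 of 42), 2R (18 of 45) and 3R (14 of 45). On 3L the third and the last place led with 9 of 38 each, against 8 for the fourth. On X the fourth and the last place held 8 of 30 each. The coordinate of an arm has no biological direction, and clusters of 6 and 7 peaks showed no such lead, with counts of 16 to 21 per place in 110 clusters and of 10 to 16 per place in 90. When peaks were first merged across gaps of 200 bp or less, the fourth place no longer led (27 of 118, against 29 for the third). It led in the other alternatives that keep 5 as the smallest number of peaks, with 29 of 110 and 55 of 187 at joining limits of 500 and 2000 bp. It also led with 61 of 181 for peaks under 4000 bp and 76 of 274 without a width limit. In the upper 75% and 50% of scores it had 30 of 103 and 17 of 38. This breakdown was made after the uneven counts had been seen, and the alternatives draw on the same peaks.

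**Figure D4:**
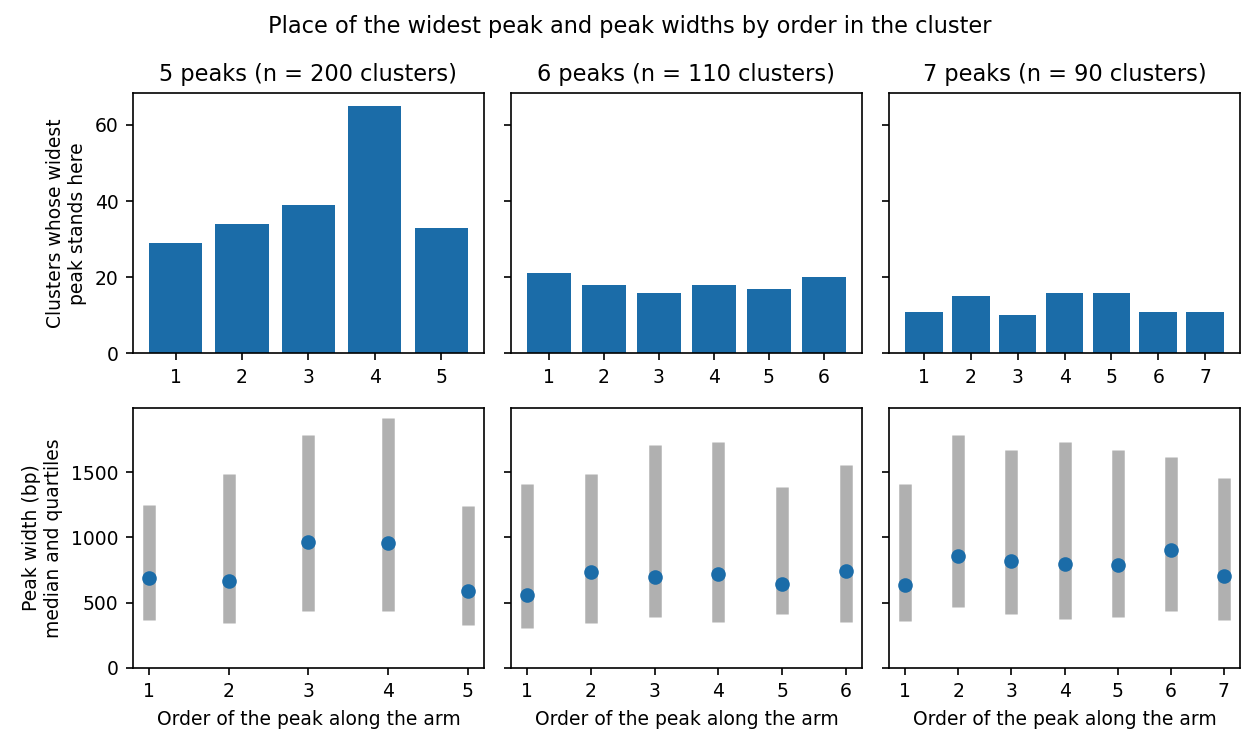
Upper row: number of clusters whose widest peak stands at each place, counted towards higher coordinates, for clusters of 5, 6 and 7 peaks. Lower row: median peak width (bp, points) and quartiles (grey bars) at each place. The first and last peaks of 5-peak clusters have medians of 687 and 590 bp, against 669 bp for the second and 968 bp in the middle. The last peak of 6-peak clusters has the largest median of its row, 742 bp.

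Over all clusters, peaks at the ends were somewhat narrower than inner ones, but not at every size of cluster. The 1004 first and last peaks were 664 bp wide at the median (quartiles 351 and 1343 bp). The 2288 inner peaks were 808 bp wide at the median (quartiles 394 and 1679 bp). In clusters of 5 peaks the second, an inner one, had a median of 669 bp, against 687 bp for the first. In clusters of 6 peaks the last had the largest median of its row, 742 bp, against 640 to 733 bp for the inner ones and 557 bp for the first. Peaks narrower than 300 bp made up 18.3% of end peaks and 14.8% of inner peaks. The scores ran the same way, with medians of 25.6 at the ends and 31.1 inside. Within the inner peaks, those next to the ends had a median width of 796 bp and those further in 821 bp.

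The 2 widest peaks of a cluster were neighbours in 220 of 502 clusters, or 43.8% (95% exact binomial interval 39.4 to 48.3%, counting error only). Neighbouring places make up 32.7% of all pairs of places when averaged over clusters. In clusters of 5 peaks they were neighbours in 108 of 200 (54.0%), where 40% of pairs are neighbouring. In clusters of 6 and 7 peaks the shares were 42.7 and 38.9%, where 33.3 and 28.6% of pairs are neighbouring. The share of neighbouring pairs takes all places as alike, whereas end peaks were narrower than inner ones over all clusters. The rule also limited the widths of the peaks, while it used their order only to measure gaps. The counts are therefore a description, and no test was made over clusters.

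Single peaks of the clusters had scores of 6.11 to 351, against 5.98 to 527 in the whole list. The highest score of a cluster was 95.9 at the median, 59.0 to 148 in the middle 50% of clusters, and between 14.4 and 351 overall. It was under 50 in 94 clusters (18.7%) and above 200 in 68 (13.5%). The highest score was 351, on the last of 6 peaks at 2R, 8048905 to 8060973. That peak was also the widest of its cluster, at 4683 bp, and the narrowest of the same cluster, at 201 bp, had a score of 11.8. The next were clusters at 2R, 10045435 to 10064478 (highest score 340), at 2R, 8146451 to 8154878 (313), at X, 1750579 to 1773599 (312), and at 2L, 7424972 to 7441933 (303). The widest peak and the peak with the highest score were the same in 291 clusters (58.0%), in 67.0% of those with 5 peaks and in 33.3% of those with 10 or more. A single place is a smaller part of a larger cluster, so the shares at these sizes are not directly comparable.

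Longer clusters had higher top scores (rho = 0.68 over 502 clusters), as had more covered ones (rho = 0.57). The number of peaks was only weakly related to the top score (rho = 0.15). These values are descriptions over clusters that share 1 list. Median scores of single peaks also rose with peak width, as given below. How the top score of a cluster relates to the width of its widest peak was not measured.

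At like width, peaks in dense clusters had median scores close to those of regions of 2 to 4 narrow peaks in the narrower classes. They had lower ones in some wider classes. Among peaks of at least 200 and under 300 bp the median score was 12.2 in dense clusters (n = 522). It was 12.2 in regions of 2 to 4 narrow peaks, 11.7 in single narrow peaks and 13.4 in regions of at least 5 peaks with a broad one. From 300 to under 500 bp it was 17.2 in dense clusters, against 16.9, 16.1 and 17.1 in the same order. From 500 to under 800 bp it was 24.3, against 24.4, 25.5 and 24.3. Among peaks of at least 800 and under 1200 bp it was 35.8 in dense clusters (n = 451), against 40.4 in regions of 2 to 4, 39.1 in single peaks and 40.6 in regions of at least 5 peaks with a broad one. From 1200 to under 2000 bp it was 60.6 in dense clusters, against 64.1, 60.7 and 69.9 in the same order. Among peaks of at least 2000 and under 3000 bp it was 91.7 in dense clusters (n = 339), against 99.7 in regions of 2 to 4, 108 in single peaks and 107 in regions of at least 5 peaks with a broad one. Among those of at least 3000 and under 5000 bp it was 128 in dense clusters (n = 242), against 129 in regions of 2 to 4, 135 in single peaks and 128 in regions of at least 5 peaks with a broad one. None of these differences was tested.

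Dense clusters lay on all 5 arms, at 3.79 to 4.97 per Mb. X held 86, or 3.84 per Mb, against 416 on the autosomal arms, or 4.38 per Mb. Arm 2L held 87 (3.79 per Mb) and 2R held 99 (4.69 per Mb). Arm 3L held 114 (4.97 per Mb) and 3R held 116 (4.16 per Mb). The value of X thus lay between those of 2L and 3R. Its ratio to the autosomal arms was 0.88, with a 95% interval from exact binomial counts of 0.69 to 1.11. This interval includes 1, but it covers counting error only and takes clusters as independent. The ratio was 0.64 (0.42 to 0.96) with gaps up to 500 bp and 0.80 (0.64 to 0.99) with gaps up to 2000 bp. Those intervals lie below 1, while those of the other alternatives include it. The median span ranged from 8.18 kb on 2L to 8.92 kb on 3L, with 8.58 kb on X, and the median covered share from 77.2% on X to 79.2% on 3R. Clusters of 10 or more peaks numbered 6 each on X and 2L and 7 on 3R, with 11 on 2R and 12 on 3L.

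Without the limit on peak width, X and the autosomal arms had nearly the same density. Regions of 5 or more peaks, whatever their widest peak, numbered 6.56 per Mb on X and 6.52 per Mb on the autosomal arms. Of these regions, 61 of 147 on X held a peak of 5 kb or wider (41.5%, 95% exact binomial interval 33.4 to 49.9%, counting error only), against 203 of 619 on the autosomal arms (32.8%, 29.1 to 36.6%). These regions are not members, and no test of the difference was made.

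**Figure D5:**
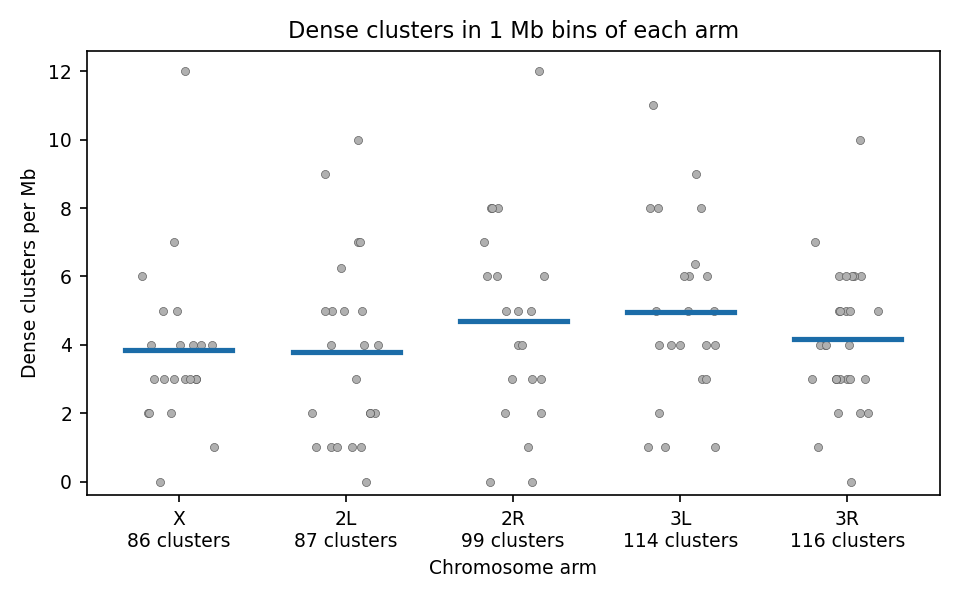
Dense clusters per Mb in bins of 1 Mb (grey points, shifted sideways to separate them) and over the whole arm (blue lines) for X, 2L, 2R, 3L and 3R. Bins range from 0 to 12 clusters on single arms, whereas the arms as a whole lie between 3.79 and 4.97 per Mb.

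Along the arms the clusters were unevenly spread. In 117 bins of 1 Mb the median was 4 clusters, with quartiles of 3 and 6. The richest bins held 12 clusters each, at 2R, 3018953 to 4018952, and X, 8416041 to 9416040. They differed in their coverage by peaks, which was 32.5% in the 2R bin and 22.5% in the X bin. A bin of 3L, 7942991 to 8942990, held 11. At the other extreme, 5 bins held none. Among them was a bin of 2R, 15018953 to 16018952, which had 85 peaks and 13.2% of its sequence under peaks, and the bin of 2R next to the centromere, with 11 peaks. Over the 114 full bins, the number of clusters rose with the covered share (rho = 0.52, a description, since the peaks of the clusters are part of the coverage).

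The 5 bins next to the centromeres held 14 clusters, or 2.80 per Mb, and differed among themselves. The bin of 3R held 7, that of 3L 4, that of X 2, that of 2L 1 and that of 2R 0. Without 3R the value was 1.75 per Mb. The nearest 2 bins of each arm together held 3.30 per Mb, against 4.35 per Mb in the bins further out. The treatment of reads from repeated sequence is not known, so the low numbers on 2L, 2R and X cannot be told apart from sequence in which reads could not be placed.

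Successive clusters of an arm were separated by 127 kb at the median and by 39.7 to 289 kb in the middle 50% of cases. In 44 of 497 cases (8.85%) the next cluster began within 10 kb, and the shortest separation was 1.02 kb, just past the joining limit. In 12 cases more than 1 Mb passed without a dense cluster. The longest such stretch was at 2R, 14745548 to 16463099, followed by 2L, 16801545 to 18463304, and X, 20343192 to 21858352.

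The surroundings of the clusters were not empty. The nearest joined region or single peak outside lay a median of 1.92 kb from the edge of a dense cluster, against 2.35 kb for regions of 2 to 4 narrow peaks. It was within 1100 bp of 57 clusters, which a slightly longer joining limit would change. In the 10 kb on either side, peaks covered a median of 20.4% around dense clusters, against 18.5% around regions of 2 to 4 narrow peaks. No peak at all stood in these flanks in 37 dense clusters (7.37%), against 259 of the small regions (11.8%). An example is the 8-peak cluster of X at 1353089 to 1377247, whose nearest neighbour was 30.0 kb away.

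Dense clusters and the small regions stood at similar distances from broad peaks. The nearest peak of 5 kb or wider lay a median of 47.8 kb from a dense cluster, against 47.0 kb from a region of 2 to 4 narrow peaks. It was within 10 kb for 70 dense clusters (13.9%), against 360 of the small regions (16.4%). It was more than 100 kb away for 160 dense clusters (31.9%), against 642 of the small regions (29.2%). The 3 clusters richest in peaks, all on 3R, were 128, 188 and 353 kb from the nearest broad peak. Peaks within 1 kb of a cluster belong to it by the rule, which keeps out any region that touches a broad peak, so the shortest distances are set by the choice of members.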

How the data were processed

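The deposited list gives start, end and a score for each of 14326 peaks. Coordinates are those of FlyBase release 5 and peaks were called with MACS, per the file headers and source column. Among the tools in the submitters' processing notes are MACS2 and BWA, with CASAVA in versions 1.7.0.3 and 1.7.0.2, on the build BDGP5. How the caller was set and how the libraries were pooled is not given in the sources used here. The score of each peak is as the authors deposited it, on an unstated scale.

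Since 2 peaks start at 0 and the narrowest is exactly 200 bp, starts were taken to count from 0. Positions are printed counted from 1. Joining, medians, quartiles and exact binomial intervals were computed in Python 3.11.15 with pandas 2.3.3 and scipy 1.17.1, and the joining was tested on simulated data. Arm lengths run from the first to the last peak. Bins were counted from the centromere, and a last bin under 50% of 1 Mb was left out.

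Clusters are named by rule: the 10 with the most peaks, the 10 longest, the 5 with the highest score, the 5 least and 5 most covered, and the shortest. Not every one is printed. Members and measures were chosen with earlier results of these data known. Gene names and sequences were not used here. Alternatives changed the gap limit, the minimum number of peaks, the width limit, the scores kept and the splitting of peaks.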

Additional observations from a re-analysis of the deposited data

How the results depend on the processing

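No paired analysis was possible because 1 list stands for all libraries, which also means that leaving out a library could not be tried. Of 54 alternative values, 21 stayed within counting error of the value reported, or for the count within 1.5 times, and 33 did not. The number of clusters was 502. It was 838 with 4 or more peaks, 302 with 6 or more, 766 with no limit on width, 212 with gaps of 500 bp or less, 214 after peaks were merged across gaps of 200 bp or less, 232 with the upper 75% of scores and 60 with the upper 50%. By construction those score limits left 10527 and 7033 peaks. The median span, 8.64 kb as reported, was 6.96 kb with 4 or more peaks, 9.98 kb with 6 or more, 7.08 kb with gaps up to 500 bp, 10.5 kb with gaps up to 2000 bp, 7.91 kb with peaks under 4000 bp, 11.4 kb with no limit on width, 10.1 kb after merging, and 9.90 and 13.8 kb in the upper 75% and 50% of scores. The covered share, 78.2% as reported, was 84.5% and 71.6% with gaps up to 500 and 2000 bp, 76.6% with peaks under 4000 bp, 82.6% with no limit on width, 77.0% after merging, and 81.4 and 84.9% in the upper 75% and 50% of scores. The median valley, 296 bp as reported, was 204 and 369 bp with gaps up to 500 and 2000 bp, 449 bp after merging, and 322 and 435 bp in the upper 75% and 50% of scores. The share with the widest peak at an end, 29.1% as reported, was 34.4% with 4 or more peaks, 34.9 and 24.9% with gaps up to 500 and 2000 bp and 15.0% in the upper 50% of scores. Clusters per Mb on X relative to the autosomal arms stood at 0.88 as reported. The ratio was 0.64 and 0.80 with gaps up to 500 and 2000 bp, and 1.01 with no limit on width. Gap and width limits move span, coverage and valleys by construction, and other causes were not tested. End places make up a smaller part of larger clusters. The share with the widest peak at an end can therefore move when cluster sizes change, but it also moved among clusters of 5 peaks alone. There the widest peak was first in 29 and last in 33 of 200 clusters as reported. The counts were 19 and 28 of 110 with gaps up to 500 bp, and 1 and 5 of 38 in the upper 50% of scores. What moved them was not tested. The lead of the fourth place in clusters of 5 peaks ended after merging at 200 bp (27 of 118, against 29 for the third) and was narrow with gaps up to 500 bp (29, against 28 for the last place). It was kept in the 5 other alternatives with the same smallest number of peaks, which draw on the same list and are not independent of each other. The libraries' depth, and with it the smallest detectable peak, is not known.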

Other observations

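The same joining rule found 2 clusters on chromosome 4, a small and largely heterochromatic autosome that the description above leaves out. They lay at 329222 to 334114, with 5 peaks over 4.89 kb and a highest score of 67.6, and at 501658 to 511718, with 7 peaks over 10.1 kb and a highest score of 119. That is 1.56 per Mb over 1.28 Mb. Their covered shares were 77.2 and 82.6%. No cluster was found among the 146 peaks of the unplaced scaffold Uextra or the 18 peaks of U.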
